A study of Homo sapiens with 24 samples.

Results

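The messenger RNA of 10 genes that coat lipid droplets, build triglycerides or break them down was followed in a pair of human breast cancer cell lines whose methionine (Met) had been replaced by its precursor homocysteine (Hcy). The 10 genes, PLIN2, PLIN3, LPIN1, DGAT1, DGAT2, HILPDA, PNPLA2, ABHD5, LIPE and MGLL, were taken by symbol, with no threshold on their values, from a raw count table of 26645 gene entries. A filter on low counts left 14741 entries to test, with 9 of these genes among them and LIPE left out. MB468 is the triple-negative line MDA-MB-468, which depends on Met, and MB468res-R8 is a single Met-independent clone obtained from it by prolonged culture with Hcy. Each line was sampled in medium with 100 µM Met (Met+, 0 h) and after 0.5, 2 and 12 h in medium that lacked Met and held 370 µM DL-homocysteine (Met-Hcy+), with 3 libraries in each of 8 groups. No group stayed in Met+ medium for the same hours, so the medium change, the time in culture and the loss of Met cannot be told apart. Whether replicates were separate cultures is not said, and the p-values measure only the spread between these samples, which may be technical.

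Cells keep spare fatty acids as triglycerides in lipid droplets, whose surface is coated by perilipins such as PLIN2 and PLIN3. Triglycerides are made from glycerol 3-phosphate by acyltransferases, the phosphatidate phosphatases of the lipin family and the diacylglycerol acyltransferases DGAT1 and DGAT2. They are hydrolysed in order by adipose triglyceride lipase (PNPLA2), hormone-sensitive lipase (LIPE) and monoacylglycerol lipase (MGLL), while ABHD5 activates PNPLA2 and HILPDA inhibits it.

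The 250 bases upstream of the RefSeq start site are shown for the genes whose 12 h change ran in opposite directions in the lines (PLIN2 and PLIN3), differed between the lines for the main lipase (PNPLA2) or was the deepest fall of the 10 (LPIN1, the most upstream of its 3 start sites). In GENCODE v44 on GRCh38 these genes span chr9:19108375-19149290 (PLIN2), chr19:4838341-4867694 (PLIN3), chr2:11677595-11827409 (LPIN1) and chr11:818914-825573 (PNPLA2), ABHD5 spans chr3:43690108-43734371 and MGLL chr3:127689062-128052190. RefSeq windows on GRCh38.p14 were matched for 6 of the 10 genes. They are written 5′ to 3′ on the gene's strand in lower case, and capitals mark matches to the motifs searched on both strands.
PLIN2, chr9:19127493-19127742, minus strand: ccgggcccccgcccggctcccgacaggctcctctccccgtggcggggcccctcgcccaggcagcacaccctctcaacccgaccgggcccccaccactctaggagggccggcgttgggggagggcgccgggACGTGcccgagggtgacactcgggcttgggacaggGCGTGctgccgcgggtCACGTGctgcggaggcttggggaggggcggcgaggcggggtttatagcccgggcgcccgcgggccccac
PLIN3, chr19:4867668-4867917, minus strand: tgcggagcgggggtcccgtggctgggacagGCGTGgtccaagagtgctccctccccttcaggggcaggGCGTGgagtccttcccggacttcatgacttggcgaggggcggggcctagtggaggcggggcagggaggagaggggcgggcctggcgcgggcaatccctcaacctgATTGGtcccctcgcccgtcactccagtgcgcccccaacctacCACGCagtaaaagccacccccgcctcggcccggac
LPIN1, chr2:11677294-11677543, plus strand: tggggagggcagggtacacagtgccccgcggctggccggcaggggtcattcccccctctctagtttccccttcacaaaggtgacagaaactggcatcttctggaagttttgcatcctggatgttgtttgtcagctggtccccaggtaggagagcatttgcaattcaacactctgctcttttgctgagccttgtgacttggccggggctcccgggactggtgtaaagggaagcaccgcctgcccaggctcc
PNPLA2, chr11:818664-818913, plus strand: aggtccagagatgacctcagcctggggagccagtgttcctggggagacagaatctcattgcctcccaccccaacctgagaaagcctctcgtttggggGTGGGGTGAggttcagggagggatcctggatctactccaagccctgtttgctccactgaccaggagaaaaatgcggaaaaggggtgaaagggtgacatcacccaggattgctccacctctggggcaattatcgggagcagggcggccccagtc
The PLIN2 window held the E-box letters CACGTG 69 bases before the start, which 6.34% of 35116 such windows hold. It also held the hypoxia response core (ACGTG or GCGTG) at 120 and 85 bases before the start, outside the E-box, whose own letters contain that core. This core was at 220, 182 and 35 bases before the start of PLIN3 and is present in 43.2% of windows. PLIN3 also held a CCAAT letter run at 77 bases, as do 32.0% of windows, and its last 27 bases are exonic in GENCODE v44. PNPLA2 held a match to the sterol response element letters TCACNCCAC at 153 bases, which 0.883% of windows hold. The LPIN1 window printed held none of these letters, while the window of another of its start sites held the hypoxia response core 124 bases before that start. None of the 4 windows printed held the ATF4-C/EBP composite element TGATGNAA, which 3.14% of windows hold. A match describes the letters of a window and is not a binding site.

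Library totals ran from 11713037 to 36402932 gene counts, with a median of 20452797, and the 92 ERCC spike-ins added a mean of 0.256%. The epithelial markers EPCAM, CDH1 and KRT8 were detected in every library, while the adipocyte genes FABP4, LEP and ADIPOQ had no count in 24, 23 and 20 of the 24 libraries. The other 2 adipocyte markers, PLIN1 and CIDEC, had counts in every library, at most 1.46 and 0.93 CPM. CPM are counts scaled to the library total, itself adjusted by the trimmed mean of M values (TMM). The summed epithelial markers were lower in MB468 at 12 h (2608 to 2826 CPM) than at 0 h (4264 to 4559 CPM), and ran from 5224 to 5494 CPM at 0 h and 5093 to 5328 CPM at 12 h in MB468res-R8. The basal-like markers EGFR, KRT5 and KRT6B went the other way, from 4383 to 4670 CPM in sum at 0 h to 6784 to 7208 CPM at 12 h in MB468 and from 4788 to 5017 CPM to 5914 to 6214 CPM in MB468res-R8. ESR1, PGR and ERBB2, low in triple-negative cells, summed to 99.9 to 105 CPM at 0 h and 88.9 to 99.9 CPM at 12 h in MB468, and to 88.6 to 106 and 42.5 to 48.7 CPM in MB468res-R8. Most of this sum was ERBB2, at 38.3 to 97.3 CPM over all libraries, with ESR1 at 4.15 to 22.6 CPM and PGR at most 0.098 CPM. The 3 leukocyte markers summed to 145 to 159 CPM at 0 h and 59.0 to 71.4 CPM at 12 h in MB468, and to 45.9 to 51.5 and 21.3 to 24.2 CPM in MB468res-R8, nearly all from CD14, with PTPRC and CD3E at most 0.199 and 0.083 CPM. The 3 fibroblast markers summed to 33.6 to 34.3 and 14.6 to 15.7 CPM in MB468 and to 54.7 to 73.4 and 29.3 to 38.3 CPM in MB468res-R8, nearly all from COL1A1, with COL1A2 at 0 in 22 libraries. The part of these markers in the results at 12 h was not tested. Normalized counts below are counts scaled by TMM to a common library size of 22756297. MB468 2 h replicate 2 stood apart in the small RNA RN7SK (704.5 CPM, others at most 10.2 CPM), and no call of the 9 tested genes was lost or gained without that library. PLIN3 and PNPLA2 share 18.3% and 10.5% of their exon bases with antisense RNA genes, whose reads an unstranded library cannot separate. DGAT1 shares 10.7% with a noncoding RNA gene on its own strand and 3.32% with HSF1 on the other. HILPDA shares 8.45% and 8.99% with noncoding RNA genes on its own strand. Changes are log2 fold changes with the standard error (SE) from edgeR's quasi-likelihood fit over all 24 libraries. A gene is called where the p of that test, adjusted over the 14741 entries by Benjamini and Hochberg, is under 0.05. TMM takes most genes as steady. Scaling by the spike-in totals instead moved the median change of all genes by -0.21, -0.42 and -0.24 in MB468 at 0.5, 2 and 12 h, by at most 0.05 in size in MB468res-R8, by -0.31 between the lines at 0 h and by 0.26 in the line difference at 12 h.

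Compared per length, as counts scaled by exon length and library size (RPKM), PLIN3 had the highest level of the 10 genes in 7 of the 8 groups, from 35.3 RPKM in MB468 at 2 h to 63.3 RPKM in MB468res-R8 at 12 h. PNPLA2 was next there at 17.0 to 27.7 RPKM, and in MB468 at 12 h its 29.3 RPKM stood above the 27.7 RPKM of PLIN3. LPIN1, HILPDA, DGAT1 and PLIN2 lay between 4.23 and 12.9 RPKM. ABHD5 and DGAT2 lay between 1.61 and 5.39 RPKM, and MGLL ranged most widely, from 0.163 to 2.89 RPKM. LIPE was nearly silent, at 0 to 7 raw counts in any library and at most 0.032 RPKM in any group. The exon length used joins all annotated exons of a gene, and levels between genes depend on that choice. The plot of normalized counts by library shows these genes over time in both lines.

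**Figure D1:**
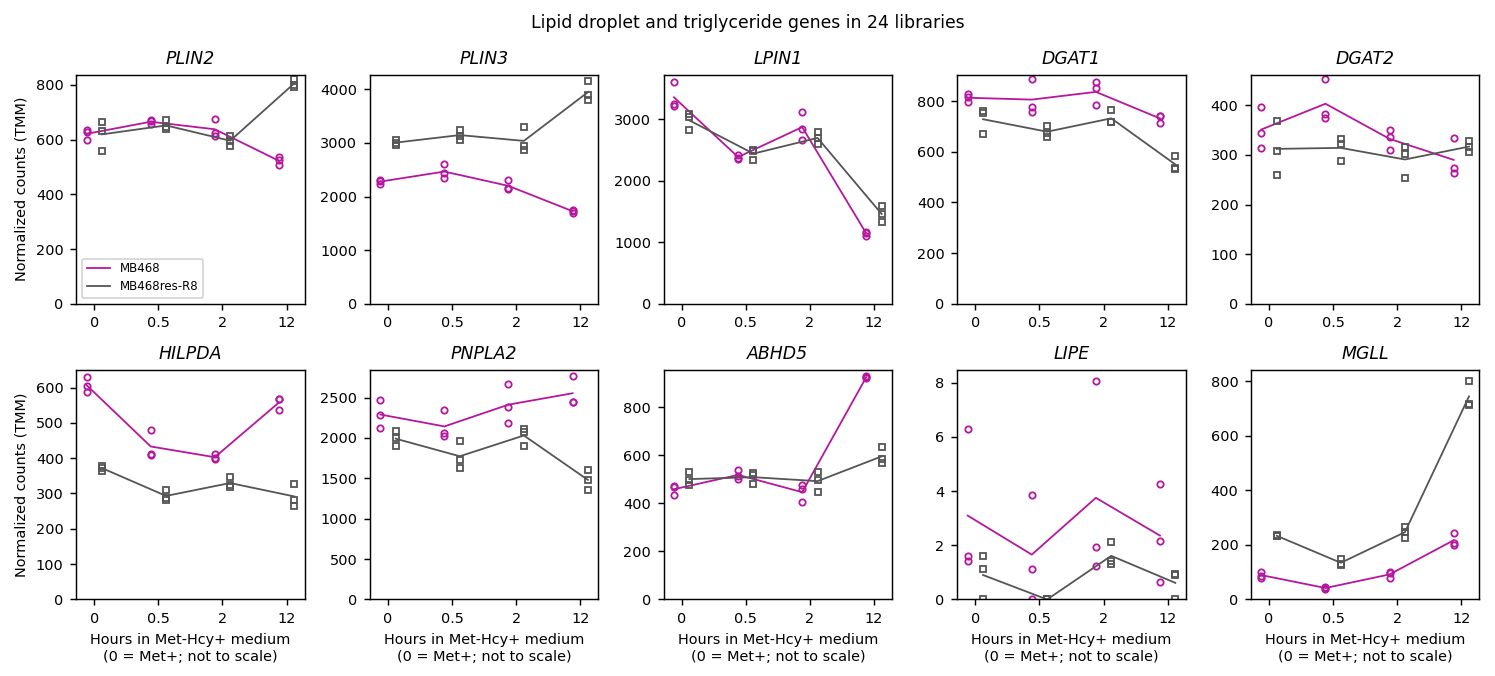
Normalized counts (TMM, linear axis from 0) of the 10 genes against hours in Met-Hcy+ medium, with 0 h in Met+ medium. Each circle (MB468) or square (MB468res-R8) is 1 of 3 libraries and lines join group means. PLIN2 and PLIN3 part at 12 h, LPIN1 falls in both lines, ABHD5 is highest in MB468 at 12 h and MGLL in MB468res-R8 at 12 h.

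The droplet coat genes were the clearest contrast between the lines: at 12 h both PLIN2 and PLIN3 were lower in MB468 and higher in MB468res-R8. PLIN2, which encodes the perilipin that is found almost only on droplets, measured 600, 630 and 634 normalized counts in MB468 at 0 h and 506, 524 and 538 at 12 h. In MB468res-R8 it measured 560, 633 and 665 at 0 h and 794, 801 and 822 at 12 h. The groups at 0 h and 12 h did not overlap in either line, and the lines did overlap at 0 h. The change was -0.25 (SE 0.06, adjusted p = 0.000735, edgeR) in MB468 and 0.37 (SE 0.06, adjusted p = 3.31e-06, edgeR) in MB468res-R8. In bulk RNA a change in every cell and a change in some of the cells cannot be told apart. The difference between the 2 responses was 0.62 (SE 0.09, adjusted p = 1.83e-07, edgeR). At 0.5 and 2 h PLIN2 stayed between 577 and 676 normalized counts in both lines and was not called.

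PLIN3, which encodes a perilipin that also occurs free in the cytosol and is recruited to young droplets, already differed at 0 h. It measured 2227, 2298 and 2311 normalized counts in MB468 and 2958, 3002 and 3057 in MB468res-R8, with no overlap and a difference of 0.40 (SE 0.05, adjusted p = 3.34e-09, edgeR). This 0 h difference was 0.09 under spike-in scaling, where it was not called (adjusted p = 0.574, edgeR). At 12 h the gap had widened. MB468 stood at 1699, 1730 and 1751 normalized counts and MB468res-R8 at 3797, 3890 and 4152. The change over 12 h was -0.40 (SE 0.05, adjusted p = 1.63e-09, edgeR) in MB468 and 0.39 (SE 0.05, adjusted p = 1.77e-09, edgeR) in MB468res-R8, and these differed by 0.79 (SE 0.07, adjusted p = 3.60e-13, edgeR). Every 12 h library of MB468 was below, and every 12 h library of MB468res-R8 above, all other libraries of that line. The ratio of raw PLIN3 to PLIN2 counts within a library, which no scaling touches, was 3.67 ± 0.162 at 0 h and 3.31 ± 0.154 at 12 h in MB468 (SD, n = 3) and 4.88 ± 0.509 and 4.90 ± 0.283 in MB468res-R8. The ratios at 0 h and 12 h did not overlap in MB468, where PLIN3 fell further than PLIN2, and overlapped in MB468res-R8.

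Of the 3 triglyceride synthesis genes, LPIN1 fell in both lines, DGAT1 fell in both and DGAT2 was called in MB468 only. LPIN1 encodes lipin 1, a phosphatidate phosphatase that makes diacylglycerol and also acts as a transcriptional coactivator. It measured 3214, 3245 and 3598 normalized counts in MB468 at 0 h and 1108, 1156 and 1164 at 12 h. The MB468res-R8 libraries held 2818, 3036 and 3078 at 0 h and 1332, 1461 and 1582 at 12 h. The 12 h groups lay far below the 0 h groups in both lines, and MB468 ended lower than MB468res-R8. The changes were -1.55 (SE 0.06, adjusted p = 7.82e-25, edgeR) and -1.03 (SE 0.06, adjusted p = 1.06e-18, edgeR). The fall was smaller in MB468res-R8 by 0.52 (SE 0.08, adjusted p = 4.02e-07, edgeR).

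DGAT1 and DGAT2 encode unrelated enzymes that add the last acyl chain of a triglyceride. DGAT1 measured 798, 815 and 826 normalized counts in MB468 at 0 h and 714, 739 and 741 at 12 h. Those of MB468res-R8 held 671, 753 and 761 at 0 h and 531, 537 and 582 at 12 h. The groups did not overlap in either line. Its change was -0.15 (SE 0.06, adjusted p = 0.0351, edgeR) in MB468, a call lost without MB468 0 h replicate 1 (adjusted p = 0.0886, edgeR) or MB468 12 h replicate 2 (adjusted p = 0.0823, edgeR) and with no filter on low counts (adjusted p = 0.0591, edgeR), and -0.41 (SE 0.07, adjusted p = 1.83e-06, edgeR) in MB468res-R8. The responses differed by -0.26 (SE 0.09, adjusted p = 0.0176, edgeR), but by 0.00 under spike-in scaling. That difference was also not called without MB468 0 h replicate 3 (adjusted p = 0.0717, edgeR), MB468res-R8 0 h replicate 1 (adjusted p = 0.130, edgeR) or MB468res-R8 12 h replicate 3 (adjusted p = 0.113, edgeR). Nor was it called in counts thinned to the lowest library total (-0.22, adjusted p = 0.0936, edgeR). DGAT2 measured 314, 343 and 396 normalized counts in MB468 at 0 h and 263, 273 and 335 at 12 h, so the groups overlapped. Its change of -0.26 (SE 0.11, adjusted p = 0.0318, edgeR) was not called when any of 4 libraries was left out, MB468 0 h replicate 2 (adjusted p = 0.0507, edgeR) or 3 (adjusted p = 0.128, edgeR) and MB468 12 h replicate 1 (adjusted p = 0.156, edgeR) or 2 (adjusted p = 0.0927, edgeR). This DGAT2 call was also lost in the thinned counts (-0.30, adjusted p = 0.0684, edgeR). In MB468res-R8 the DGAT2 change was 0.03, with a 95% interval from -0.20 to 0.26, and the line difference of 0.29 had an interval from -0.02 to 0.61. That difference was called under spike-in scaling (0.56, adjusted p = 0.0310, edgeR), without MB468res-R8 0 h replicate 2 (0.43, adjusted p = 0.0181, edgeR) and without MB468 12 h replicate 3 (0.43, adjusted p = 0.0224, edgeR).

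On the lipolysis side the lines also parted at 12 h: ABHD5 rose mainly in MB468, PNPLA2 fell in MB468res-R8, and MGLL rose in both. PNPLA2 measured 2122, 2282 and 2464 normalized counts in MB468 at 0 h and 2444, 2446 and 2768 at 12 h. In MB468res-R8 it measured 1896, 1995 and 2080 at 0 h and 1355, 1475 and 1608 at 12 h. The MB468 groups overlapped and the MB468res-R8 groups did not. The changes were 0.16 in MB468 (SE 0.08, adjusted p = 0.0914, edgeR) and -0.43 in MB468res-R8 (SE 0.09, adjusted p = 0.000257, edgeR). The MB468 value was called higher with no filter on low counts (adjusted p = 0.00329, edgeR), with only the compared groups fitted (adjusted p = 0.0326, edgeR) and without MB468 0 h replicate 1 (0.22, adjusted p = 0.0394, edgeR), and under spike-in scaling its value was -0.09, not called. The difference between the lines' changes was -0.59 (SE 0.12, adjusted p = 0.000287, edgeR), and -0.33 under spike-in scaling, where it was not called (adjusted p = 0.148, edgeR).

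ABHD5, also called CGI-58, encodes the coactivator that PNPLA2 needs for full activity. It measured 436, 467 and 473 normalized counts in MB468 at 0 h and 921, 926 and 928 at 12 h. MB468res-R8 had 474, 498 and 530 at 0 h and 566, 586 and 633 at 12 h. The 12 h libraries were above the 0 h libraries in both lines, by far more in MB468. The changes were 1.01 (SE 0.07, adjusted p = 2.62e-16, edgeR) and 0.24 (SE 0.07, adjusted p = 0.00360, edgeR), and the second was not called under spike-in scaling (0.27, adjusted p = 0.116, edgeR). The response was smaller in MB468res-R8 by 0.76 (difference -0.76, SE 0.10, adjusted p = 1.96e-08, edgeR). Within a library, raw ABHD5 counts per raw PNPLA2 count were 0.201 ± 0.0165 at 0 h and 0.363 ± 0.0251 at 12 h in MB468 (SD, n = 3), and 0.252 ± 0.0209 and 0.405 ± 0.0581 in MB468res-R8. The ratio of activator to lipase message thus moved up in both lines, with ABHD5 higher in MB468 and both ABHD5 higher and PNPLA2 lower in MB468res-R8.

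MGLL encodes the enzyme that releases the last fatty acid from glycerol. It measured 78.1, 87.1 and 102 normalized counts in MB468 at 0 h and 200, 207 and 244 at 12 h. MB468res-R8 libraries had 232, 233 and 235 at 0 h and 714, 716 and 802 at 12 h. The lines did not overlap at 0 h or at 12 h, and MB468 at 12 h came to about the level of MB468res-R8 at 0 h. The changes were 1.29 (SE 0.12, adjusted p = 8.52e-13, edgeR) in MB468 and 1.67 (SE 0.10, adjusted p = 6.84e-18, edgeR) in MB468res-R8. The line difference of 0.39 (SE 0.16, adjusted p = 0.0314, edgeR) was not called without MB468 0 h replicate 1 (0.26, adjusted p = 0.193), MB468 12 h replicate 1 (adjusted p = 0.0816) or 2 (adjusted p = 0.0562), or MB468res-R8 0 h replicate 2 (adjusted p = 0.0517) in the same test. The study lists MGLL among lipid genes it selected on these same libraries, so its calls are not independent evidence. Per raw PNPLA2 count, MB468 libraries held 0.0388 ± 0.00242 MGLL counts at 0 h and 0.0848 ± 0.00321 at 12 h, and those of MB468res-R8 held 0.117 ± 0.00641 and 0.504 ± 0.0211 (SD, n = 3).

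HILPDA, a small inhibitor of PNPLA2 known as a hypoxia-inducible gene, was lower in MB468res-R8 throughout. It measured 586, 603 and 631 normalized counts in MB468 and 364, 373 and 379 in MB468res-R8, a difference of -0.71 (SE 0.08, adjusted p = 3.08e-10, edgeR). The lines did not overlap at any of the 4 times. At 12 h HILPDA measured 537, 567 and 568 in MB468 and 265, 282 and 327 in MB468res-R8. The change was -0.12 in MB468 (SE 0.07, adjusted p = 0.135, edgeR) and -0.35 in MB468res-R8 (SE 0.08, adjusted p = 0.000372, edgeR), the second not called under spike-in scaling (-0.34, adjusted p = 0.0590, edgeR). The MB468 change was called under spike-in scaling (-0.36, adjusted p = 0.0233, edgeR) and with only the compared groups fitted (-0.14, adjusted p = 0.0463, edgeR). The difference between these responses was not called (-0.23, 95% interval -0.45 to -0.003, adjusted p = 0.0785, edgeR), was 0.02 under spike-in scaling and was called without MB468res-R8 12 h replicate 1 (-0.27, adjusted p = 0.0394, edgeR).

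Counted over the 9 tested genes, 7 were called at 12 h in MB468 (2 higher and 5 lower), where 70.8% of all entries were called, 36.1% higher and 34.7% lower. In MB468res-R8 8 were called (4 higher and 4 lower), against 61.3% of all entries, 30.2% higher and 31.1% lower. The line difference at 12 h was called for 7 of the 9 (4 higher and 3 lower in MB468res-R8), against 56.5% of all entries, 26.2% higher and 30.3% lower. With so many genes called, these counts over the 9 genes are not a result about them, and what they show is in each gene's direction and size. Both lines are compared with their own 0 h libraries, which the line difference shares. The intervals are drawn in the plot of the 12 h response.

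**Figure D2:**
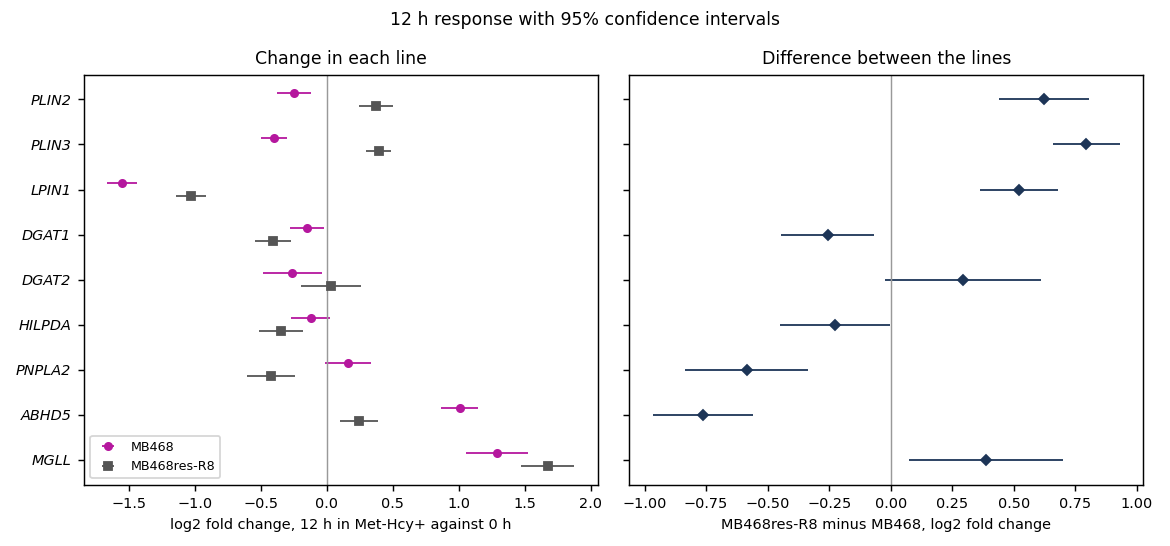
Left, log2 fold change at 12 h in Met-Hcy+ medium against 0 h for the 9 tested genes in MB468 (circles) and MB468res-R8 (squares). Right, the difference between these changes (diamonds), with bars for 95% confidence intervals over 3 libraries a group. PLIN2 and PLIN3 lie on opposite sides of 0 in the lines, and ABHD5 and PNPLA2 are to the left of 0 on the right. The DGAT1 difference of -0.26 was 0.00 under spike-in scaling.

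At 0.5 h the same 3 of the 9 genes, LPIN1, HILPDA and MGLL, were called lower in each line, where 33.9% of all entries were called in MB468 (16.4% lower) and 33.7% in MB468res-R8 (16.3% lower). LPIN1 measured 2355, 2372 and 2421 normalized counts in MB468 and 2335, 2475 and 2505 in MB468res-R8, below every 0 h library of its line. Its changes were -0.49 (SE 0.05, adjusted p = 1.61e-09, edgeR) and -0.29 (SE 0.05, adjusted p = 4.68e-05, edgeR). HILPDA measured 408, 412 and 480 in MB468 and 281, 289 and 310 in MB468res-R8, with changes of -0.49 (SE 0.08, adjusted p = 2.38e-06, edgeR) and -0.35 (SE 0.08, adjusted p = 0.000985, edgeR). In MB468res-R8 neither LPIN1 (-0.24, adjusted p = 0.260) nor HILPDA (-0.30, adjusted p = 0.207) was called in the same edgeR test under spike-in scaling. MGLL measured 39.4, 40.2 and 46.2 in MB468 and 126, 129 and 148 in MB468res-R8, no library reaching its line's 0 h level. Its changes were -1.11 (SE 0.16, adjusted p = 2.08e-07, edgeR) and -0.79 (SE 0.11, adjusted p = 3.66e-07, edgeR). MGLL was thus lower at 0.5 h and higher at 12 h in both lines. The line difference at 0.5 h was called for 0 of the 9 by edgeR and for 0 by DESeq2, with 1 (LPIN1) at an unadjusted p under 0.05, while 2.9% of all entries were called.

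By 2 h MGLL had come back to 77.9, 97.2 and 100.2 normalized counts in MB468 and 226, 248 and 265 in MB468res-R8, overlapping 0 h in both. In MB468 2 of the 9 genes were called at 2 h, both lower, against 16.3% of all entries (7.47% lower). HILPDA measured 396, 399 and 412 normalized counts, a change of -0.59 (SE 0.08, adjusted p = 2.72e-07, edgeR). LPIN1 measured 2656, 2830 and 3119, a change of -0.23 (SE 0.05, adjusted p = 0.00225, edgeR). In MB468res-R8 0 of the 9 were called at 2 h by edgeR and 0 by DESeq2, with 2 (LPIN1 and HILPDA) at an unadjusted p under 0.05, and 4.37% of all entries were called. HILPDA was there at 317, 324 and 348, a change of -0.18 (SE 0.08, adjusted p = 0.290, edgeR). It was the 1 gene whose line difference at 2 h was called, at 0.41 (SE 0.11, adjusted p = 0.0225, edgeR), against 5.07% of all entries (2.19% higher). That call was lost without MB468 0 h replicate 1 (adjusted p = 0.0669, edgeR), MB468res-R8 0 h replicate 2 (adjusted p = 0.0520, edgeR) or MB468res-R8 2 h replicate 3 (adjusted p = 0.0611, edgeR). Under spike-in scaling 8 of the 9 genes were called in MB468 at 2 h, all lower. That scaling called 9511 of all 14741 entries there, only 2.52% of them higher, and moved the median change of all genes by -0.42. With it PLIN2, DGAT1 and PNPLA2 turned from small positive values to -0.39, -0.38 and -0.34.

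**Figure D3:**
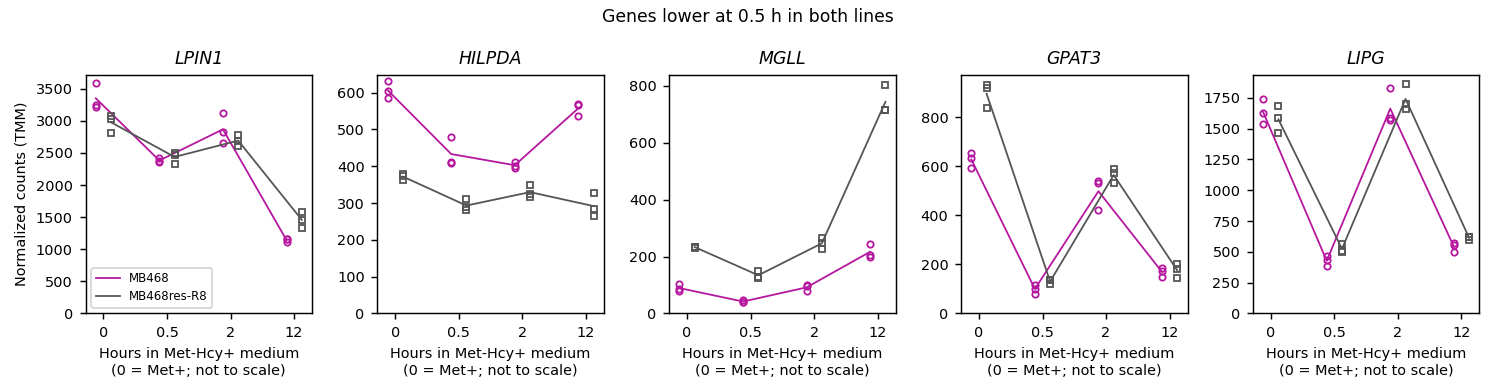
Normalized counts (TMM, linear axis from 0) against hours in Met-Hcy+ medium for LPIN1, HILPDA and MGLL and for GPAT3 and LIPG of the wider lists, in MB468 (circles) and MB468res-R8 (squares). Each symbol is 1 of 3 libraries and lines join group means. All 5 genes are lower at 0.5 h than at 0 h in both lines, and GPAT3 and LIPG are higher again at 2 h and lower at 12 h. Under spike-in scaling LPIN1 and HILPDA were not called at 0.5 h in MB468res-R8.

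In Met+ medium the lines differed in 5 of the 9 genes, against 53.5% of all entries, 26.4% higher and 27.1% lower in MB468res-R8. PLIN3 and MGLL were higher in MB468res-R8, and HILPDA, LPIN1 and DGAT1 were lower. MGLL showed the largest of these differences, 1.39 (SE 0.12, adjusted p = 4.76e-13, edgeR). LPIN1 differed by -0.17 (SE 0.05, adjusted p = 0.00698, edgeR) and DGAT1 by -0.15 (SE 0.07, adjusted p = 0.0445, edgeR). Without MB468 0 h replicate 3 both of these calls were lost (adjusted p = 0.0525 and 0.0591, edgeR), with 3 of the 9 genes left, and the DGAT1 call was also lost without MB468 0 h replicate 1 (adjusted p = 0.119, edgeR) or 2 (adjusted p = 0.0603, edgeR) or MB468res-R8 0 h replicate 3 (adjusted p = 0.242, edgeR). It was lost too with a spike-in factor as covariate (adjusted p = 0.0818), with no filter (adjusted p = 0.0690) and in thinned counts (adjusted p = 0.0746), by the same edgeR test. PLIN2 was not called, at 0.00 with a 95% interval from -0.13 to 0.13, but was called lower in MB468res-R8 under spike-in scaling (-0.31, adjusted p = 0.04997, edgeR). DGAT2 was not called either. It was called lower in MB468res-R8 under spike-in scaling (-0.48, adjusted p = 0.00588, edgeR) and without MB468res-R8 0 h replicate 2 (-0.31, adjusted p = 0.0286, edgeR). PNPLA2 lay just outside the threshold at -0.20 (SE 0.08, adjusted p = 0.0536, edgeR). It was called lower by DESeq2 (adjusted p = 0.0192), by edgeR with no filter (adjusted p = 0.000238), with at least 10 counts in every library (adjusted p = 0.0402), with only the compared groups (adjusted p = 0.000957) and without MB468 0 h replicate 2 (adjusted p = 0.0249), and under spike-in scaling it was -0.52 (adjusted p = 0.000347, edgeR). At 12 h 8 of the 9 differed between the lines, 4 higher and 4 lower in MB468res-R8, against 73.1% of all entries, 33.9% higher and 39.2% lower. The largest were MGLL at 1.78 (SE 0.10, adjusted p = 1.36e-19, edgeR), PLIN3 at 1.19 (SE 0.05, adjusted p = 3.87e-24, edgeR) and HILPDA at -0.93 (SE 0.08, adjusted p = 6.46e-14, edgeR). LPIN1 had changed sides, from lower in MB468res-R8 at 0 h to higher at 12 h (0.35, SE 0.06, adjusted p = 1.02e-06, edgeR).

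Around these genes, 34 of 46 other genes of glycerolipid synthesis, droplet assembly and coat, lipid hydrolysis and sterol ester storage were tested. In MB468 at 12 h 11 rose and 16 fell, with a median of -0.17, and in MB468res-R8 8 rose and 15 fell, with a median of -0.24, where the median of all genes was 0.01 and -0.02. Over all entries 36.1% were called higher and 34.7% lower at 12 h in MB468 and 30.2% and 31.1% in MB468res-R8, and the small lists here and below are given as counts beside these shares, with no test of a list. Glycerolipid synthesis had 4 higher and 7 lower of 14 in MB468 and 4 and 5 in MB468res-R8, and droplet assembly and coat had 6 and 4 of 11 and 4 and 3. The hydrolysis genes had 1 higher and 4 lower of 7 in MB468 and 0 and 5 in MB468res-R8. Sterol ester storage had 1 of 2 lower in MB468 and both lower in MB468res-R8. Of this wider set 8 genes were called with an absolute log2 change of at least 1 at 12 h in a line.

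GPAT3, a glycerol 3-phosphate acyltransferase that catalyses the entry step of triglyceride synthesis, had the deepest 0.5 h fall among these 8 genes. They were picked on their 12 h change, so the ranking does not cover the rest of the wider set. GPAT3 is given first. It measured 595, 634 and 655 normalized counts in MB468 at 0 h and 80.8, 102 and 117 at 0.5 h, and 839, 918 and 932 and then 121, 135 and 135 in MB468res-R8. No 0.5 h library came near a 0 h library. The changes at 0.5 h were -2.59 (SE 0.11, adjusted p = 1.53e-21, edgeR) and -2.78 (SE 0.11, adjusted p = 2.77e-23, edgeR), and at 12 h -1.89 (SE 0.10, adjusted p = 7.48e-20, edgeR) and -2.36 (SE 0.10, adjusted p = 3.56e-22, edgeR). The 12 h fall was deeper in MB468res-R8 by 0.47 (difference -0.47, SE 0.14, adjusted p = 0.00541, edgeR). GPAT3 started higher in MB468res-R8 at 0 h (0.52, SE 0.09, adjusted p = 5.15e-06, edgeR). The lines were not called different at 12 h (0.05, SE 0.11, adjusted p = 0.711, edgeR). Spike-in scaling moved the median 12 h line difference of all genes by 0.26, and the value of GPAT3 under it is not given here. At 2 h GPAT3 measured 422, 532 and 542 in MB468 and 532, 575 and 587 in MB468res-R8, above 0.5 h and still below every 0 h library. It was called lower than at 0 h in both lines (-0.34, SE 0.10, adjusted p = 0.0111 and -0.67, SE 0.09, adjusted p = 1.02e-06, edgeR). LIPG, which encodes endothelial lipase, a secreted phospholipase, went from 1536, 1629 and 1742 at 0 h in MB468 to 382, 435 and 465 at 0.5 h, 1570, 1588 and 1830 at 2 h and 500, 554 and 573 at 12 h. In MB468res-R8 LIPG went from 1462, 1586 and 1681 to 495, 511 and 567 at 0.5 h, 1659, 1702 and 1866 at 2 h and 600, 617 and 624 at 12 h. The 2 h libraries of LIPG overlapped those at 0 h and were not called (0.01 and 0.14), and the 0.5 h and 12 h libraries lay below.

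The perilipin PLIN4 measured 231, 234 and 246 normalized counts in MB468 at 0 h and 159, 177 and 178 at 12 h. In MB468res-R8 it measured 102, 121 and 160 at 0 h and 39.9, 52.8 and 53.8 at 12 h. It thus fell in both lines (-0.46, SE 0.12, adjusted p = 0.00109 and -1.38, SE 0.16, adjusted p = 5.53e-10, edgeR), unlike PLIN2 and PLIN3 in MB468res-R8. PLIN1, the perilipin of adipocytes, was at most 33.2 normalized counts and was called lower in MB468res-R8 (-1.26, SE 0.37, adjusted p = 0.00312, edgeR), with -0.46 in MB468 (adjusted p = 0.252, edgeR). The glycerol kinase gene GK, which has near-identical copies among which reads can be split, fell by 1.25 in MB468 and by 0.62 in MB468res-R8 on the log2 scale (adjusted p = 1.42e-17 and 4.32e-08, edgeR). AGPAT4, PNPLA3 and HSD17B11 were low genes, at most 102 normalized counts in any library. PNPLA3, a relative of PNPLA2 known from fatty liver, was called lower at 12 h in both lines, with 38, 43 and 34 raw counts in MB468 at 0 h against 2, 3 and 6 at 12 h, and 30, 33 and 15 against 0, 0 and 2 in MB468res-R8. AGPAT4, an acylglycerolphosphate acyltransferase gene, fell in both lines, MB468 by a log2 change of -1.31 and MB468res-R8 by one of -1.50 (adjusted p = 2.04e-06 and 0.00189, edgeR). The MB468res-R8 value of AGPAT4 rests on 13, 9 and 11 raw counts at 0 h and 3, 4 and 5 at 12 h. HSD17B11, which encodes a droplet-associated dehydrogenase, changed by -1.18 in MB468 (adjusted p = 0.000421, edgeR) and 0.28 in MB468res-R8 (adjusted p = 0.238, edgeR), and the changes differed by 1.46 (SE 0.36, adjusted p = 0.000532, edgeR). In the lists of regulated genes at 12 h, to be read beside the same shares over all entries, 0 rose and 3 fell of 5 tested targets of the fatty acid sensing PPAR receptors in each line. Of 10 hypoxia targets 4 rose and 3 fell in MB468 and 2 rose and 4 fell in MB468res-R8, and of 8 transcription factor genes of lipid and hypoxia control 4 rose and 4 fell, and 1 rose and 5 fell.

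The choice of scaling mattered most in MB468, as the plot of TMM against spike-in scaling shows. At 12 h the opposite signs of PLIN2 (-0.49 and 0.40) and PLIN3 (-0.64 and 0.41) in MB468 and MB468res-R8 were kept under spike-in scaling, as were the falls of LPIN1 (-1.79 and -1.0) and the rises of MGLL (1.03 and 1.69).

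**Figure D4:**
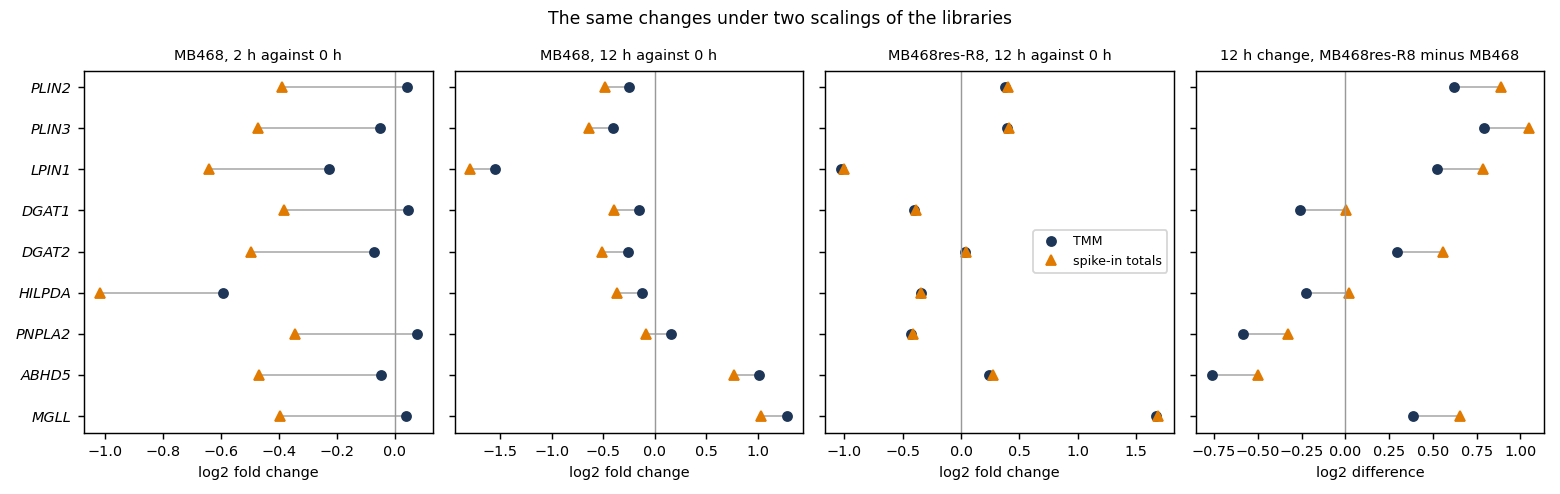
Log2 changes of the 9 tested genes under TMM (circles) and with spike-in totals as library sizes (triangles), for MB468 at 2 h and 12 h, MB468res-R8 at 12 h and the line difference at 12 h. All genes move by about the same amount within a panel, to the left in MB468, hardly in MB468res-R8 and to the right in the line difference, where DGAT1 comes to 0.00.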

How the data were processed

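Reads were aligned by the authors with HISAT2 2.1.0 to a reference of GRCh38 plus ERCC spike-ins and assigned to genes with featureCounts (Subread 1.5.3, versions per the submitters' processing notes). The deposited table used here is their raw counts, whole numbers for 26645 gene rows and 92 spike-in rows over 24 libraries, not normalized. The deposited normalized table and the table of the authors' own fold changes and p-values were not used. The 10 genes and all lists were chosen with earlier results of these data known. Counts were tested in edgeR 4.0.16 (R 4.3.3, limma 3.58.1): filterByExpr (minimum count 10), TMM, 1 mean for each of 8 groups and robust quasi-likelihood tests of 11 contrasts, adjusted by Benjamini-Hochberg over 14741 entries. Normalized counts are scaled to the mean effective library size, and RPKM uses the joined length of all GENCODE v44 exons of a gene. Spike-ins stayed out of library sizes. The study's model formula (DESeq2 with RUVSeq) is not given in the sources used here, so DESeq2 1.42.0 and a spike-in factor were alternatives. Totals of 11713037 to 36402932 counts bound the precision, which covers 3 libraries a group. Named genes are the 10, those of the wider lists called with an absolute log2 change of at least 1 at 12 h in a line, and the 2 closest genes of each by Pearson r, of which 1 is not reported here. Pairs of replicates of a group differed beyond counting error (chi-square per degree of freedom 2.30 to 8.87). On simulated counts for the MB468 12 h comparison, 200 of 14467 genes were changed, up and down in equal numbers. There 88% of genes changed by a log2 of 1 and 98% of those changed by 2 were recovered, with 4.62% of calls false. The real comparison called 70.8% of entries, so these rates do not carry over to it, nor to changes smaller than a log2 of 1. Figures were drawn with matplotlib.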

Additional observations from a re-analysis of the deposited data

Results flagged for a closer look

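For 8 of the responses above the difference between the lines passed edgeR's test of the difference itself (Benjamini-Hochberg adjusted p under 0.05 over all entries). The same test called 56.5% of all entries at 12 h and 5.07% at 2 h, so the count is not a result about these genes. At 12 h, as MB468res-R8 minus MB468 on the log2 scale, these were PLIN2 at 0.62, PLIN3 at 0.79, LPIN1 at 0.52 and MGLL at 0.39, and DGAT1 at -0.26, PNPLA2 at -0.59 and ABHD5 at -0.76. At 2 h it was HILPDA at 0.41. PLIN2 and PLIN3 were called in opposite directions in the lines. The MGLL and DGAT1 differences at 12 h and that of HILPDA at 2 h were not called when 1 of several libraries was left out, and those of DGAT1 and PNPLA2 were not called under spike-in scaling.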

How the results depend on the processing

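Scaling by spike-in totals changed most: it called 8 rather than 2 of the 9 genes in MB468 at 2 h and 1 rather than 3 in MB468res-R8 at 0.5 h, 12 rather than 21 of the wider genes in the 12 h line difference, and turned PLIN2 (-0.39), DGAT1 (-0.38) and PNPLA2 (-0.34) in MB468 at 2 h, PLIN2 between the lines at 0 h (-0.31) and the DGAT1 line difference at 12 h (0.0017). Of the 99 gene values, 81 kept their side of the threshold and, where called, their direction under it. It called 9511 rather than 2410 of all entries in MB468 at 2 h, 3287 rather than 5000 at 0.5 h in MB468, 2023 rather than 4967 in MB468res-R8 at 0.5 h, 180 rather than 644 at 2 h, 5887 rather than 9036 at 12 h and 101 rather than 428 in the 0.5 h line difference. In the 12 h line difference, where fewer of the wider genes were called, it called 5797 rather than 8336 of all 14741 entries. The share of called entries that were higher went from 51.8% to 13.96%, 54.3% to 2.52% and 51.0% to 30% in MB468 at 0.5, 2 and 12 h, from 49.4% to 14.98% between the lines at 0 h, and from 41.4% to 79.2%, 43.2% to 93.0% and 46.3% to 69.9% in the line difference at these times. At an adjusted p under 0.01, 0 rather than 1 of the 9 genes was called in the 2 h line difference, and of all entries 1580 in MB468 at 2 h, 392 in MB468res-R8 at 2 h and 232 and 431 rather than 428 and 747 in the 0.5 and 2 h line differences. Without single libraries the count between the lines at 0 h ran from 3 to 6 and that of the 2 h line difference from 0 to 1, and 728 of 756 gene values did so. Of 891 values under the other alternatives, 870 did (DESeq2's test and size factors, other filters, the compared groups only, a spike-in factor, the block, and a thinning to 11713037 counts added after seeing the data), and no called value reversed. Of all 1746 of these values, 77 changed sign while called in neither fit. Replicate numbers were not tied to a shared culture or day and same-numbered libraries did not deviate together in every pair, and the replicate block changed 0 of 99 gene calls, with 7 and 8 genes called at 12 h in MB468 and MB468res-R8. The cause of these changes was not tested. LIPE was too low to test.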

Other observations

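Among the other genes of triglyceride storage, 10 of the 34 tested had a higher and 11 a lower 12 h response in MB468res-R8 than in MB468, where 56.5% of all entries were called. The glycerolipid synthesis genes had 5 higher and 4 lower of 14, and droplet assembly and coat had 1 higher and 4 lower of 11. GK, the glycerol kinase gene, fell less in MB468res-R8 (difference 0.63, SE 0.12, adjusted p = 1.21e-05, edgeR), after starting lower there at 0 h (-0.72, SE 0.08, adjusted p = 2.05e-10, edgeR).

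The patterns of log2 CPM over the 24 libraries were most like those of other genes as follows, given as a description over libraries that share line and time. PLIN3 was closest to SLC1A6 (r = 0.983) and PFKP (r = 0.976), and PLIN2 to SF3B1 (r = 0.943) and HSPE1 (r = 0.914). MGLL was closest to ITGA3 (r = 0.980) and LRRC59 (r = 0.980), ABHD5 to YY1 (r = 0.966) and PIP4K2A (r = 0.965), and PNPLA2 to TINAGL1 (r = 0.9498) and MAP1B (r = 0.943). LPIN1 was closest to SYT12 (r = 0.966) and DHCR7 (r = 0.964), DGAT1 to GPX4 (r = 0.973) and ADGRG1 (r = 0.958), and HILPDA to MLXIP (r = 0.928) and PDDC1 (r = 0.924). DGAT2 had the weakest likeness, to MED12 (r = 0.772).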
